A study of Mus musculus with 26 samples.

Results

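The drug, lipid and sterol efflux pump genes described here are Abcb1a, Abcb1b, Abcb4, Abcg2, Abcg5, Abcg8, Abcc6, Abcc5, Abca1 and Atp8b1. They were chosen by symbol, 10 genes of the 47643 in a table of RNA-seq read counts from mouse liver. The choice was made with earlier results of these data known. All 10 had a row in the table, and all 10 passed the filter on low counts in each of the 5 comparisons of the study. The study's title places these livers in the setting of cholestasis, the impaired flow of bile.

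Liver cells empty drugs, bile lipids and sterols across the membrane that faces the bile channel. Most of the genes encode ABC transporters, which use ATP to move a substrate outward across a membrane. Abcb1a and Abcb1b encode the rodent forms of P-glycoprotein (Mdr1), a pump for many drugs, and Abcb4 (Mdr2) moves phosphatidylcholine to the outer leaflet so that bile can collect it. Abcg5 and Abcg8 encode the subunits of a single pump that secretes cholesterol and plant sterols into bile. Abcg2 exports drugs, sulfated conjugates and urate. Abca1 passes cholesterol and phospholipid to apolipoprotein A-I on the blood side. Abcc6 (Mrp6) is needed for ATP release from hepatocytes, and Abcc5 (Mrp5) exports nucleotides and other organic anions. Atp8b1 is not an ABC transporter but a P4-ATPase flippase, which returns aminophospholipids to the inner leaflet. Loss of human ATP8B1 or ABCB4 causes inherited cholestasis.

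The 26 libraries form 10 groups, and each treated group was compared with its own control. Whole liver of wild-type C57BL/6J mice at 8 weeks, fed ad libitum, had received corn oil or TCPOBOP, an agonist of the mouse nuclear receptor CAR (2 libraries each). The time after TCPOBOP is 36 h in the sample titles and 6 h in another label of the same samples, and this was not resolved. Whole liver of Fxr-/- Shp-/- C57BL/6J mice was compared with wild type at 12 weeks, fed ad libitum (3 libraries each). Fxr is the bile acid receptor and Shp is a repressor that it induces. Whole liver of C3H/HeN mice at 8 to 10 weeks, fed ad libitum, was taken at 0 h after a sham operation or at 48 h after partial hepatectomy (3 libraries each). No sham liver was taken at 48 h, so resection and time after surgery cannot be told apart. Hepatocytes of wild-type C57BL/6J mice at 16 weeks came from a chow group and a group on a 60% High Fat Diet, both after a 10 h fast (2 libraries each). Whole liver of fl/fl Fxr fl/fl Shp C57BL/6J mice at 10 to 12 weeks, fasted 8 to 10 h, came from a chow group and a group fed cholic acid, a primary bile acid (3 libraries each). Both of these last groups carry the floxed alleles, and the labels name no Cre. Sex was not given, and no label says whether replicates were separate mice, so p-values measure the spread between these samples, which may be technical.

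Gene counts per library ran from 13949059 to 70367874, and no libraries were identical. Hepatocyte markers were high in all 10 groups, with a summed level of 45385 CPM or more in every library. Cftr, Epcam and Krt19, markers of bile duct cells, had no counts in the chow hepatocytes. The library labelled corn oil 1 went against its label. Cyp2b10, the classic CAR target, reached 3786 CPM there and only 10.3 CPM in corn oil 2, while the TCPOBOP libraries had 3465 and 3079 CPM. Results for TCPOBOP are therefore given with it and, for some genes, also without it. In the knockout, Nr0b2 (Shp) was at 0.594 to 1.68 CPM in the Fxr-/- Shp-/- libraries and 13.7 to 28.2 CPM in wild type, and Nr1h4 (Fxr) at 55.7 to 65.0 and 117 to 161 CPM. Reads of both genes remained, and counts per gene do not tell which part of a gene they come from, so they do not show the deletion itself. CPM is the read count scaled to the library size, after TMM scaling within a comparison.

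Both P-glycoprotein genes lie on chromosome 5 with Abcb4, in 1 orientation (build GRCm38). Abcb1a spans chr5:8660077-8748575, Abcb1b chr5:8798147-8866315 and Abcb4 chr5:8893717-8959231, with gaps of 49571 and 27401 bases between them. The coding sequences of Abcb1a and Abcb1b, 3828 bases each, are 88.1% identical over 3819 aligned bases, against 75.7% for Abcb1a and Abcb4 and 74.3% for Abcb1b and Abcb4. The following 90-base stretches, from the GENCODE M21 transcripts, are 1 example of how alike the pair is. They were taken from the middle of the longest block aligned without a gap. Capitals mark the 6 bases that differ, and the stretches cover coding bases 2846 to 2935 of Abcb1a and 2852 to 2941 of Abcb1b.
Abcb1a: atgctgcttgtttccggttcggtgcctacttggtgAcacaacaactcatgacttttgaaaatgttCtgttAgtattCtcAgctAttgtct
Abcb1b: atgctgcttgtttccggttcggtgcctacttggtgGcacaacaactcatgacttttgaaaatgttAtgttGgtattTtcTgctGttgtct
Of the distinct 50-base words in the transcripts of Abcb1a, 17.6% also occur in another gene, as do 11.6% of those of Abcb1b and 2.83% of those of Abcb4. For Abcg5, Abcg8, Abcc6, Abcc5 and Abca1 no such word was shared.

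Abcg5 and Abcg8 lie head to head on chromosome 17, Abcg5 on the minus strand at chr17:84658234-84683011 and Abcg8 on the plus strand at chr17:84676302-84700333. Their exons overlap by 82 bases, 3.02% of the exon length of Abcg5, and the strand setting of the counting was not given in the sources used here. The RefSeq start of Abcg5, 84683011, and a RefSeq start of Abcg8, 84683121, are so close that their promoter windows (250 bases before to 50 after the start, build GRCm38.p6) share 209 bases. A second RefSeq start of Abcg8, 84676302, which is also its start in GENCODE M21, has a window (chr17:84676052-84676351) that shares no base with that of Abcg5. The shared stretch is the reason for printing the first of these windows, chr17:84682871-84683170 on the plus strand, with the shared part in capitals.
Abcg8 window: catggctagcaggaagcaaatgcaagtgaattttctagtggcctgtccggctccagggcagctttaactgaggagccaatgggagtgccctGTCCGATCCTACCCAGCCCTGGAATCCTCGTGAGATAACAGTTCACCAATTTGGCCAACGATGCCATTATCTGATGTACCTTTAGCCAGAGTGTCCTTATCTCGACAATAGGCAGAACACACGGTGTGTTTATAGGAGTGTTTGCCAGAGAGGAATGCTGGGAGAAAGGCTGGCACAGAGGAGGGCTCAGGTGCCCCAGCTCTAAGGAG
Searched on both strands, the shared part holds 3 copies of the GATA box AGATAA, 1 CCAAT and 1 TATAAA, and the window at the second start of Abcg8 holds none of these. Of all 32851 windows of this length in the table, 11.2% hold at least 1 AGATAA, 37.4% a CCAAT and 13.6% a TATAAA. The DR4 repeat that liver X receptors are known to bind was searched only as the exact letters AGGTCA, 4 bases and AGGTCA. This string was in none of the windows found for 8 of the pump genes and in 5 of all windows (0.0152%). So rare a string is unlikely to occur in any few windows, and variants of the repeat were not searched. Its absence therefore does not show that these windows lack such a site. The windows of Abcb1a and Abcb1b differ in CCAAT and GC box letters. That of Abcb1b holds 2 CCAAT (1 on the other strand, seen as ATTGG) and 1 GC box GGGCGG (35.7% of all windows). The window of Abcb1a holds neither. Abcb1b is printed here at chr5:8797897-8798196 on the plus strand, with the matches in capitals. The RefSeq start used for Abcb1a lies 92986 bases upstream of its start in GENCODE M21.
Abcb1b window: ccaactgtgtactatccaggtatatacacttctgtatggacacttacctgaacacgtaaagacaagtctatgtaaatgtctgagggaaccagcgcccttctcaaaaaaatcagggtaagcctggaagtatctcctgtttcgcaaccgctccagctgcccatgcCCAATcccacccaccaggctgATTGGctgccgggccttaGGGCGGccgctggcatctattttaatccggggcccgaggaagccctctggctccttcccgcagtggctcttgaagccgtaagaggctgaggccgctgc
A match of letters is a description of the window, not evidence of a bound factor.

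Per kilobase of exon, the 10 genes fell into an abundant and a scarce set in every control group. In wild-type liver the highest level was that of Abcb4, 54.8 ± 5.24 CPM per kb (SD, n = 3). Abcg8 (32.5 ± 1.44) and Abcg5 (31.6 ± 3.72) followed with overlapping libraries. Abcc6 (16.5 ± 1.73) and Abca1 (14.9 ± 2.01) also overlapped, and Abcg2 (11.0 ± 0.631) and Atp8b1 (5.53 ± 0.734) came next. Abcb1a (0.388 ± 0.136), Abcc5 (0.177 ± 0.0164) and Abcb1b (0.138 ± 0.00429) were far lower. The order of the abundant genes differed between control groups: Abcg5 led in sham liver (41.0 ± 0.605 CPM per kb, n = 3), and in chow hepatocytes Abcg5 (55.7 ± 2.65), Abcg8 (54.8 ± 1.99) and Abcb4 (52.8 ± 0.840, n = 2 each) had overlapping neighbours. These control groups differ in strain, age, feeding and tissue, and those factors cannot be told apart. With cholic acid Abcb1a reached 7.89 ± 3.77 CPM per kb (n = 3), and its libraries then overlapped those of Abcg2 and Atp8b1.

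**Figure D1:**
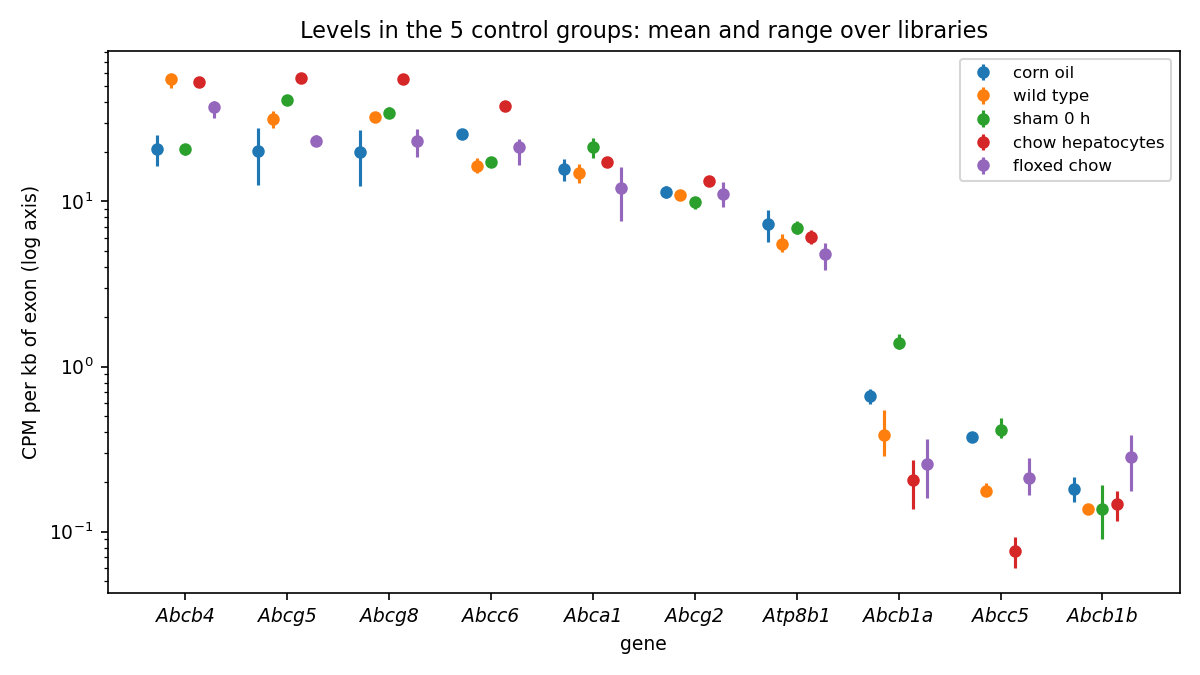
Level of each pump gene in the 5 control groups, in CPM per kb of exon on a log axis. Points are group means, and bars run from the lowest to the highest library. Abcb1a, Abcc5 and Abcb1b sit below the other genes in every control group, for example at 0.388, 0.177 and 0.138 in wild-type liver.

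Abcb1a rose in 3 of the 5 comparisons, and cholic acid gave its highest level. It was at 0.871, 1.34 and 1.99 CPM in the 3 floxed chow libraries and at 28.4, 66.8 and 34.4 CPM with cholic acid. The lowest cholic acid library was far above the highest chow library. The fold change was 30.7 (log2 4.94 ± 0.44 SE, edgeR adjusted p = 0.00204). The chow values rest on only 12 to 28 reads, the cholic acid values on 573 to 1266. In high fat diet hepatocytes Abcb1a was at 11.1 and 12.8 CPM, against 0.749 and 1.50 CPM on chow, a 10.5-fold rise (log2 3.40 ± 0.31, adjusted p = 0.00352). In the Fxr-/- Shp-/- livers it was at 6.86, 7.62 and 10.3 CPM against 1.83, 2.97 and 1.57 CPM in wild type, a 3.90-fold rise (log2 1.96 ± 0.27, adjusted p = 0.000674). Neither diet group nor genotype overlapped its control. All 3 calls held under the alternatives that were run. Fits of the high fat diet that left out 1 library are not counted as support, because a single library then remained in a group.

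Partial hepatectomy left Abcb1a overlapping its control, with 4.95, 6.01 and 8.41 CPM against 7.02, 8.61 and 7.16 CPM in sham liver (log2 -0.23 ± 0.21, adjusted p = 0.428). Sham liver of the C3H/HeN strain had a mean of 7.60 CPM beside 8.25 CPM in the Fxr-/- Shp-/- livers, but the comparisons were scaled separately, and strain and experiment cannot be told apart there. TCPOBOP livers had 5.76 and 4.65 CPM and corn oil livers 4.03 and 3.26 CPM (log2 0.51 ± 0.27, adjusted p = 0.895). Without the library labelled corn oil 1 this difference was still not called.

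Its neighbour Abcb1b was scarce everywhere and went the other way where it was called. In the Fxr-/- Shp-/- livers it was at 0.594, 0.511 and 0.560 CPM, below the 1.07, 1.14 and 1.09 CPM of wild type with no overlap. This fall by 0.98 on the log2 scale (SE 0.28) was called at adjusted p = 0.0221. The call rests on 11 to 20 reads per library: it was lost with DESeq2's Wald test (adjusted p = 0.115), with no filter (0.0597), with all 26 libraries in the fit (0.0640), with the replicate number as a block (0.0651) and in 5 of 6 fits that left out 1 library. On the high fat diet hepatocytes had 0.430 and 0.359 CPM of Abcb1b against 0.928 and 1.42 CPM on chow, a 2.97-fold fall (log2 -1.57 ± 0.33, adjusted p = 0.0233). That call was lost in 3 of 4 fits that left out 1 library. With cholic acid it was at 1.44, 0.475 and 1.51 CPM against 2.32, 1.41 and 3.06 CPM, groups that overlap (log2 -0.98 ± 0.49, adjusted p = 0.281). After hepatectomy it was at 1.46, 1.12 and 1.58 CPM against 0.719, 1.52 and 1.06 CPM (adjusted p = 0.470). The TCPOBOP values of 2.06 and 1.63 CPM overlapped the 1.70 and 1.20 CPM of corn oil (adjusted p = 0.953).

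**Figure D2:**
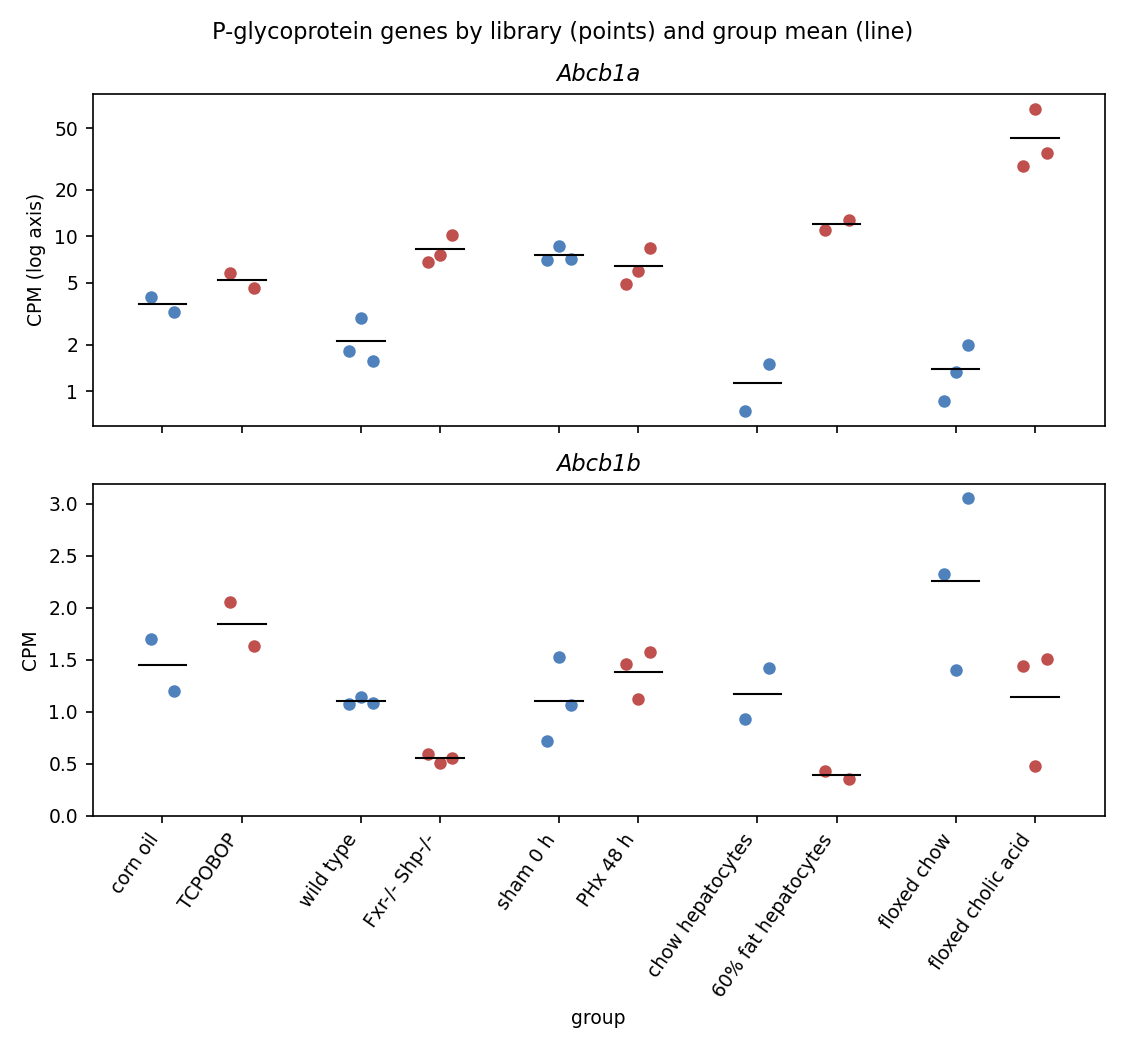
Abcb1a (upper panel, log axis) and Abcb1b (lower panel) in CPM for each of the 26 libraries; points are libraries, blue for controls and red for treated groups, and lines are group means. Abcb1a runs from 28.4 to 66.8 with cholic acid and from 0.871 to 1.99 on chow, while Abcb1b stays at or below 3.06 in every library.

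The balance within the P-glycoprotein pair also differed between some groups, although the permutation test used here cannot reach a p under 0.05 with so few libraries. In floxed chow liver Abcb1a supplied 38.5 ± 10.8% of the reads of the pair (SD, n = 3), and with cholic acid 96.8 ± 2.21% (n = 3). Its share was 93.5 ± 1.41% in the Fxr-/- Shp-/- livers against 64.8 ± 6.79% in wild type. In both cases the groups did not overlap, and the two-sided exact permutation p was 0.1, the smallest that 3 against 3 allow. The share of 81.9 ± 4.03% after hepatectomy against 87.6 ± 2.91% in sham gave the same exact permutation p. There the highest hepatectomy library (84.3%) lay just below the lowest sham library (85.0%), and neither gene was called. High fat diet hepatocytes had 96.8 ± 0.721% against 48.0 ± 4.72% on chow (n = 2 each, exact permutation p = 0.333, the smallest possible). Shares for TCPOBOP (73.8 ± 0.223%) and corn oil (71.7 ± 1.97%, n = 2 each) lay close together. Reads that matched several places made up 43.2 to 44.1% of all reads in wild-type and 25.5 to 26.9% in Fxr-/- Shp-/- libraries, and 23.8 to 25.1% in floxed chow and 16.6 to 17.6% in cholic acid libraries. Their part in the values of this similar pair was not tested.

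Markers of other cell types also differed between some groups. The 6 endothelial markers summed to 93.7 to 96.3 CPM in high fat diet and 38.4 to 40.3 CPM in chow hepatocytes, with 6 of 6 called higher. Macrophage markers (62.9 to 67.7 against 34.5 to 38.1 CPM, 5 of 6 called) and stellate markers (33.7 to 34.3 against 8.74 to 14.7 CPM, 5 of 6 called) were higher too. Leukocyte markers summed to 2.45 to 2.76 against 0.696 to 1.44 CPM, with Ms4a1 at 0 in both groups. Bile duct markers overlapped (9.81 to 16.2 against 9.92 to 10.3 CPM), with Cftr at 0 in both groups, and 1 of 6 hepatocyte markers was called lower. In the Fxr-/- Shp-/- livers, bile duct markers summed to 58.0 to 136 CPM against 27.3 to 38.2 CPM in wild type (5 of 6 called higher) and stellate markers to 367 to 450 against 180 to 300 CPM (4 of 6). Leukocyte markers summed to 17.3 to 34.8 against 5.76 to 8.94 CPM, with 2 of 3 tested called higher. Macrophage and endothelial markers each had 2 of 6 called higher there, and 3 of 6 hepatocyte markers were called lower. With cholic acid 1 macrophage and 1 stellate marker of 6 were called higher, no endothelial or bile duct marker was, and 1 of 6 hepatocyte markers was called lower. After hepatectomy 1 bile duct and 1 stellate marker were called higher, and 1 endothelial and 2 hepatocyte markers lower. Over all genes tested, 12.9% were called higher and 11.1% lower with the high fat diet, and 21% and 19.4% in the knockout. With cholic acid 4.77% and after hepatectomy 30.7% were called in either direction. Counts of 1 or 2 markers of 6 are too few to be read as a difference from these shares. In bulk samples, a change in cell numbers and a change in RNA per cell cannot be told apart, and the part of other cells in the pump values was not tested.

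The phospholipid pump Abcb4 was called lower in 2 comparisons when no library was left out. It was at 323, 331 and 356 CPM in the Fxr-/- Shp-/- livers, all below the 544, 457 and 541 CPM of wild type (log2 -0.61 ± 0.11, adjusted p = 0.00223). High fat diet hepatocytes had 365 and 326 CPM against 501 and 490 CPM on chow (log2 -0.52 ± 0.09, adjusted p = 0.0173), a call lost with all 26 libraries in the fit (adjusted p = 0.148) and in 1 of 4 fits that left out 1 library. Cholic acid gave 489, 338 and 389 CPM against 382, 301 and 370 CPM on chow, with overlap (log2 0.21 ± 0.19, adjusted p = 0.555). After hepatectomy the values were 241, 209 and 155 CPM against 180, 202 and 201 CPM in sham liver (adjusted p = 0.813). TCPOBOP livers, at 168 and 132 CPM, overlapped corn oil livers at 154 and 237 CPM (adjusted p = 0.931). Without the library labelled corn oil 1 the log2 change of Abcb4 was -0.66.

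Atp8b1, the flippase, was called lower only in the Fxr-/- Shp-/- comparison among the 5 tested, when no library was left out. It was at 25.4, 22.3 and 22.2 CPM there, against 35.6, 42.7 and 33.2 CPM in wild type. The groups did not overlap (log2 -0.67 ± 0.12, adjusted p = 0.00234). With cholic acid it was at 43.7, 39.3 and 47.0 CPM and on chow at 37.4, 33.7 and 25.7 CPM, every treated library above every control, but this was not called (log2 0.43 ± 0.18, adjusted p = 0.207). Hepatectomy livers had 50.9, 57.7 and 67.5 CPM against 51.0, 44.6 and 42.7 CPM (log2 0.35 ± 0.12, adjusted p = 0.0614), which was called when the first hepatectomy library was left out (log2 0.44, adjusted p = 0.0296). Hepatocytes showed no difference beyond the spread, at 38.7 and 41.1 CPM on the high fat diet and 45.1 and 37.0 CPM on chow (adjusted p = 0.818). TCPOBOP livers, at 33.5 and 35.1 CPM, lay below both corn oil livers, at 38.2 and 60.0 CPM, without a call (log2 -0.52 ± 0.24, adjusted p = 0.878). Without the library labelled corn oil 1 the log2 change of Atp8b1 was -0.80.

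The sterol pump genes Abcg5 and Abcg8 rose together with cholic acid and fell together after hepatectomy. Abcg5 was at 304, 226 and 162 CPM with cholic acid against 58.9, 62.7 and 68.4 CPM on chow, a 3.64-fold rise (log2 1.86 ± 0.24, adjusted p = 0.00808). Abcg8 was at 400, 294 and 227 CPM against 102, 88.6 and 69.9 CPM, a 3.53-fold rise (log2 1.82 ± 0.25, adjusted p = 0.00945). For both genes the order of the cholic acid libraries was the same, and none overlapped chow. After hepatectomy Abcg5 was at 65.0, 59.2 and 68.2 CPM against 112, 112 and 109 CPM in sham liver (log2 -0.80 ± 0.08, adjusted p = 0.000293). Abcg8 was at 92.4, 84.5 and 68.4 CPM against 139, 124 and 121 CPM (log2 -0.65 ± 0.12, adjusted p = 0.00542), a call just lost with all 26 libraries in the fit (adjusted p = 0.0506).

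In the other 3 comparisons neither sterol pump gene was called. Fxr-/- Shp-/- livers had Abcg5 at 58.2, 59.1 and 78.8 CPM against 95.5, 86.2 and 75.4 CPM in wild type, overlapping by 1 library (log2 -0.39 ± 0.14, adjusted p = 0.0518). It was called with DESeq2's Wald test (adjusted p = 0.0446), with no filter (0.0302) and without wild-type library 3 (0.0457) or knockout library 3 (0.00311). Abcg8 there was at 110, 119 and 151 CPM against 126, 124 and 116 CPM (log2 0.05 ± 0.12, adjusted p = 0.763). Per kilobase the ratio of Abcg5 to Abcg8 was 0.715 ± 0.0236 in the knockout and 0.969 ± 0.0733 in wild type (SD, n = 3 each), with no overlap and an exact permutation p of 0.1, the smallest possible. With cholic acid the ratio was 1.03 ± 0.0412 against 1.04 ± 0.284 on chow (exact permutation p = 1), and after hepatectomy 1.11 ± 0.235 against 1.20 ± 0.0778 in sham (exact permutation p = 0.4). High fat diet hepatocytes had Abcg5 at 151 and 157 CPM against 146 and 156 CPM (adjusted p = 0.835), and Abcg8 at 193 and 177 CPM against 200.1 and 211 CPM (adjusted p = 0.249).

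**Figure D3:**
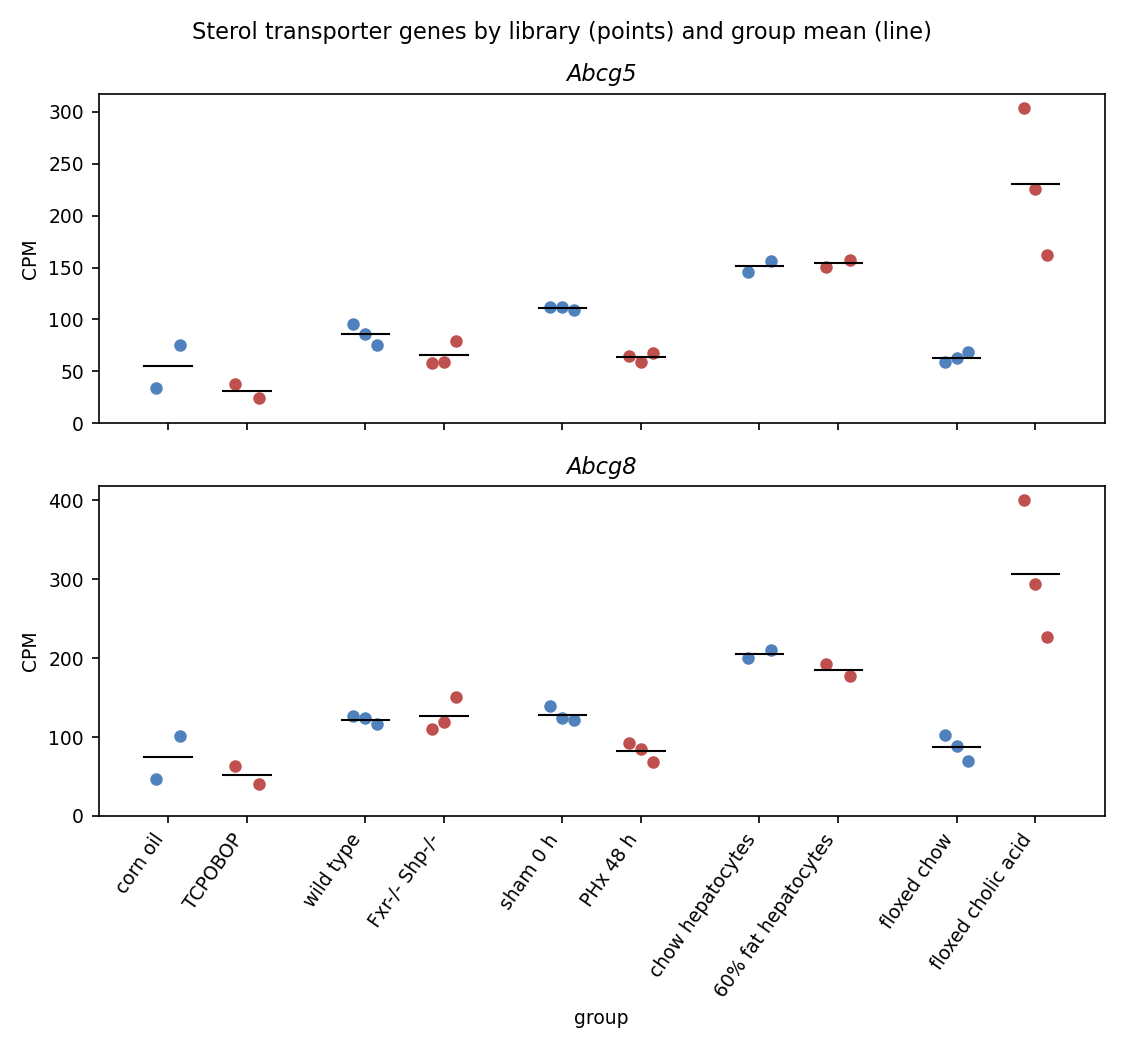
Abcg5 (upper panel) and Abcg8 (lower panel) in CPM for each library; points are libraries, blue for controls and red for treated groups, and lines are group means. Both genes are highest with cholic acid (162 to 304 and 227 to 400) and lower after hepatectomy than in sham liver.

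TCPOBOP results for the sterol pump turned on the library that contradicts its label. Abcg5 was at 37.4 and 24.6 CPM with TCPOBOP, and at 33.9 CPM in corn oil 1, as labelled, but 75.8 CPM in corn oil 2 (adjusted p = 0.895). Abcg8 was at 62.7 and 41.0 CPM, against 46.7 and 102 CPM (adjusted p = 0.947). With all 4 libraries none of the 10 genes was called by edgeR, and none of the 12785 genes tested was (0% called, 751 at an unadjusted p under 0.05, of which Abcg2 was the only pump gene). DESeq2's Wald test called 102 of all genes and none of the 10. Without the library labelled corn oil 1, 1 control library remained, whose spread is assumed to be that of the TCPOBOP libraries. Calls from such a fit are therefore not read as results. The largest falls of the 10 genes were then those of Abcg5 (log2 -1.28), Abcg8 (-0.97), Atp8b1 (-0.80) and Abcb4 (-0.66). The highest log2 change of these genes over all fits that left out 1 library was -0.13 for Abcg5 and 0.15 for Abcg8. It was -0.15 for Atp8b1 and -0.036 for Abcb4.

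Abca1, the cholesterol exporter of the blood side, was called in 1 comparison only, and by a small margin. Fxr-/- Shp-/- livers had 203, 176 and 232 CPM and wild type 153, 176 and 134 CPM (log2 0.40 ± 0.13, adjusted p = 0.0400). That call was lost with all 26 libraries in the fit (adjusted p = 0.174), with the replicate block (0.0773) and in 4 of 6 fits that left out 1 library. With cholic acid Abca1 was at 105, 132 and 179 CPM against 166, 127 and 78.5 CPM, with wide overlap (adjusted p = 0.789). Hepatectomy (184, 215 and 213 against 189, 250.2 and 224 CPM, adjusted p = 0.504) and high fat diet (215 and 206 against 175 and 186 CPM, adjusted p = 0.102) gave no call either. TCPOBOP livers had 146 and 144 CPM, between the 137 and 188 CPM of corn oil (adjusted p = 0.965).

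Abcc6 and Abcc5 belong to the multidrug resistance protein family, and they changed in different comparisons. Abcc6 fell 2.58-fold after hepatectomy, to 38.8, 35.3 and 40.4 CPM from 94.3, 98.3 and 103 CPM (log2 -1.37 ± 0.09, adjusted p = 2.11e-05). It kept this call in every alternative. In high fat diet hepatocytes Abcc6 was at 289 and 269 CPM against 209 and 223 CPM, with no overlap (log2 0.37 ± 0.09, adjusted p = 0.0331), but this did not survive any of the 4 fits lacking 1 library, nor the fit of all 26 libraries (adjusted p = 0.0851). Cholic acid (143, 129 and 115 against 134, 137 and 95.7 CPM, adjusted p = 0.852) and the knockout (105, 113 and 98.5 against 105, 84.9 and 93.4 CPM, adjusted p = 0.242) left it overlapping its control. With TCPOBOP it was at 128 and 134 CPM and with corn oil at 146 and 148 CPM, groups that did not overlap and gave no call (log2 -0.17 ± 0.13, adjusted p = 0.943).

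Abcc5 rose 3.79-fold in the Fxr-/- Shp-/- livers, to 6.49, 8.18 and 6.94 CPM from 2.09, 1.77 and 1.81 CPM (log2 1.92 ± 0.18, adjusted p = 0.000103). The hepatocytes of the diet groups had 1.86 and 1.57 CPM on high fat and 0.642 and 0.994 CPM on chow (log2 1.06 ± 0.28, adjusted p = 0.0452), a call lost in 3 of 4 fits that left out 1 library. With cholic acid it was at 4.61, 3.27 and 5.50 CPM, all above the 2.98, 2.01 and 1.78 CPM on chow, but was not called (log2 0.99 ± 0.33, adjusted p = 0.125) except with all 26 libraries in the fit (adjusted p = 0.00604). Hepatectomy livers (5.13, 3.77 and 4.92 CPM) and sham livers (5.23, 4.15 and 3.94 CPM) overlapped (adjusted p = 0.855), as did TCPOBOP livers (3.29 and 4.40 CPM) and corn oil livers (4.09 and 3.89 CPM, adjusted p = 0.990).

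Abcg2, a drug and urate exporter, was called in none of the 5 comparisons. Its group means stayed between 69.1 and 109 CPM. The largest differences were after hepatectomy (81.6, 109 and 118 against 87.0, 82.2 and 73.8 CPM, log2 0.34 ± 0.14, adjusted p = 0.0990) and with TCPOBOP (75.2 and 62.9 against 85.9 and 101 CPM, log2 -0.44 ± 0.16, adjusted p = 0.839). Fxr-/- Shp-/- livers had 61.6, 69.4 and 94.5 CPM against 86.1, 86.7 and 95.3 CPM in wild type, with overlap (log2 -0.25 ± 0.15, adjusted p = 0.213). High fat diet hepatocytes, at 106 and 104 CPM, lay between the chow values of 102 and 117 CPM (adjusted p = 0.709). With cholic acid Abcg2 was at 68.8, 68.0 and 100.3 CPM, overlapping the 89.6, 75.9 and 107 CPM on chow (adjusted p = 0.603). Leaving out the first hepatectomy library led to a call (log2 0.49, adjusted p = 0.0131), as did leaving out knockout library 3 in the comparison with wild type (log2 -0.44, adjusted p = 0.00443).

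**Figure D4:**
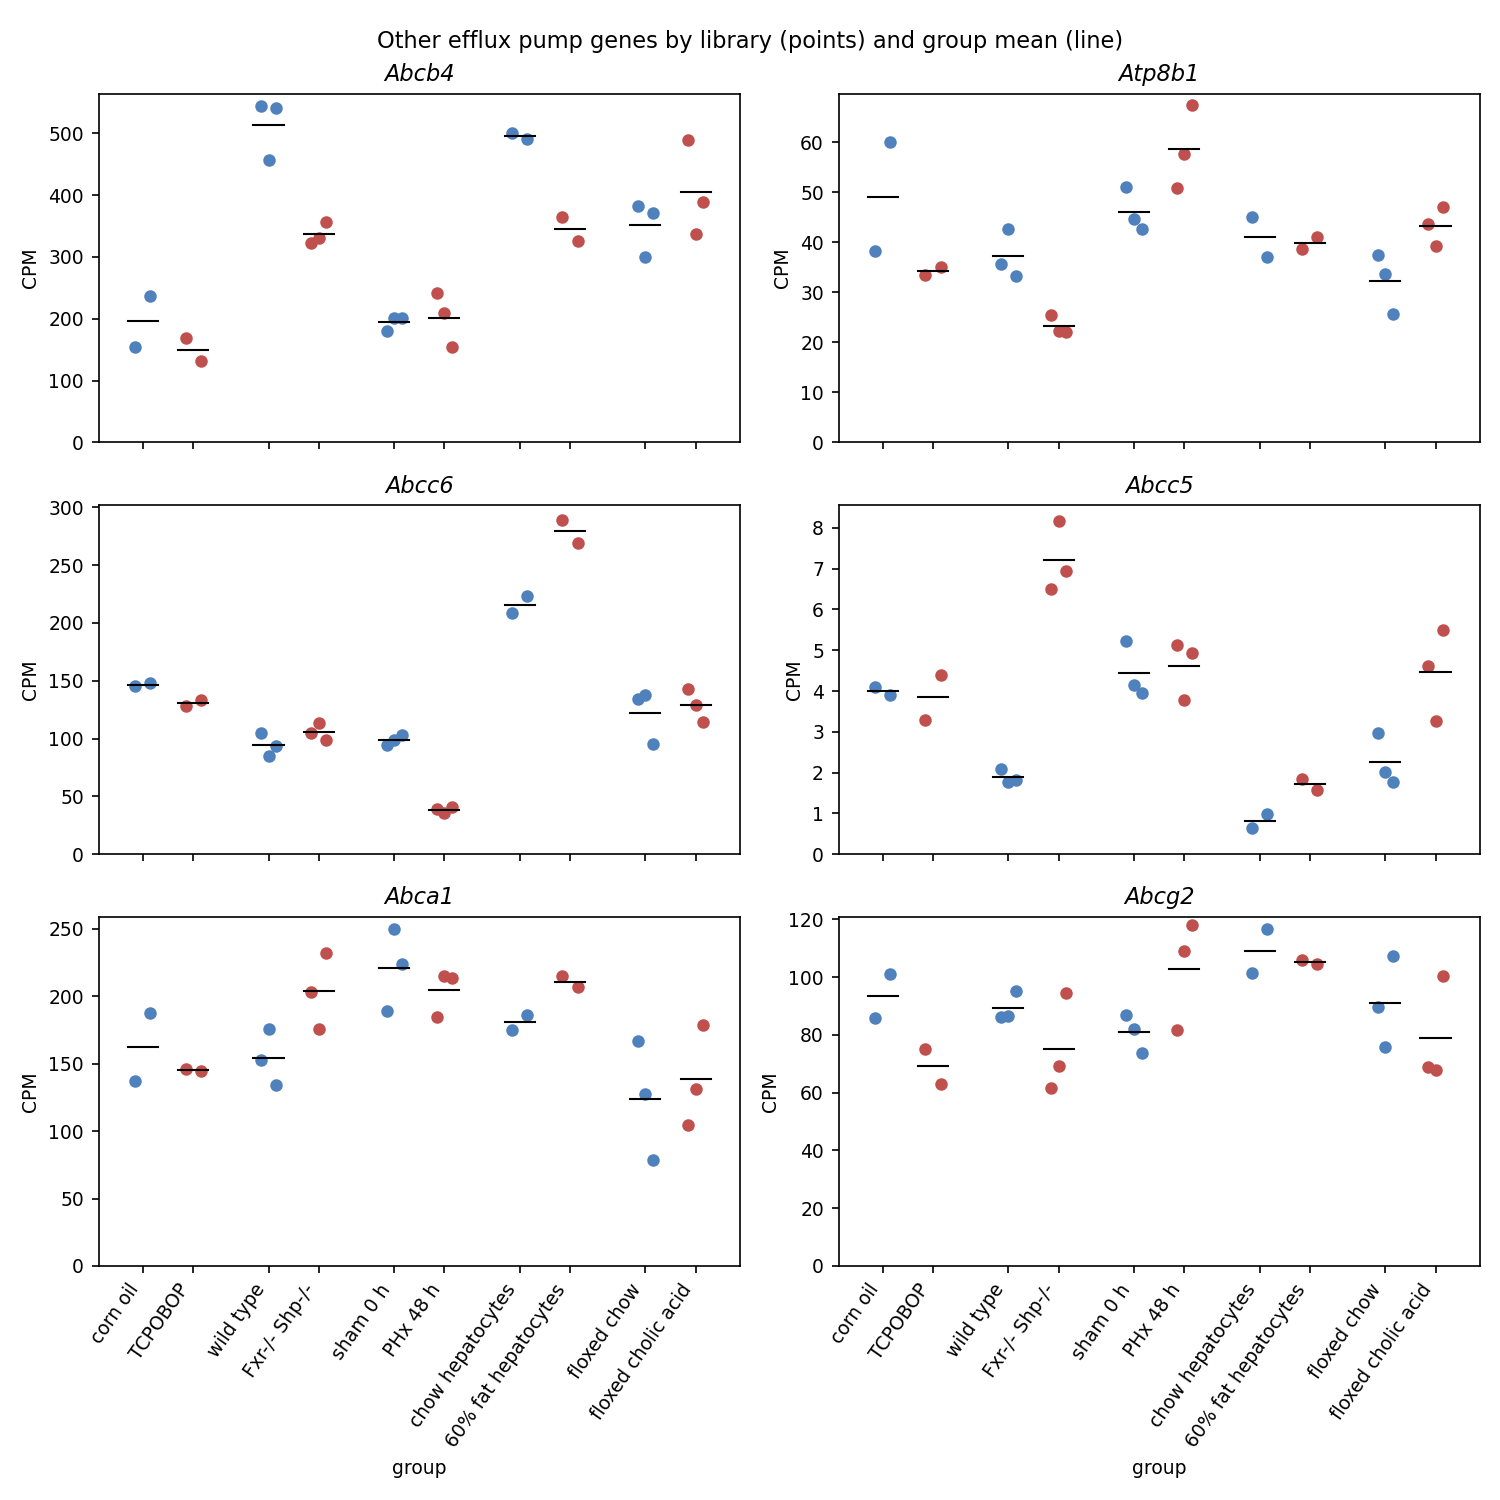
The 6 other pump genes in CPM for each library; points are libraries, blue for controls and red for treated groups, and lines are group means. Abcc6 is at 35.3 to 40.4 after hepatectomy against 94.3 to 103 in sham liver, and Abcc5 is at 6.49 to 8.18 in the knockout against 1.77 to 2.09 in wild type.

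Counted by comparison, 6 of the 10 genes were called in the Fxr-/- Shp-/- livers (3 higher, 3 lower), where 40.4% of the 13473 genes tested were (21% higher, 19.4% lower). That count ran from 4 to 7 when 1 library was left out. After hepatectomy 3 of 10 were called, all lower, beside 30.7% of 13753 genes in either direction and 14.3% lower. The high fat diet had 5 of 10 called (3 higher, 2 lower) beside 24% of 13892 (12.9% higher, 11.1% lower). That count was not stable: with all 26 libraries in the fit it was 3, while calls over all genes fell from 3333 to 1735. Cholic acid had 3 of 10 called, all higher, beside 4.77% of 12577 genes in either direction and 2.27% higher. The median log2 change of the 10 genes was 0.32 with cholic acid, -0.27 with TCPOBOP and between -0.10 and -0.01 in the other comparisons, beside -0.02 to 0.01 over all genes tested.

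**Figure D5:**
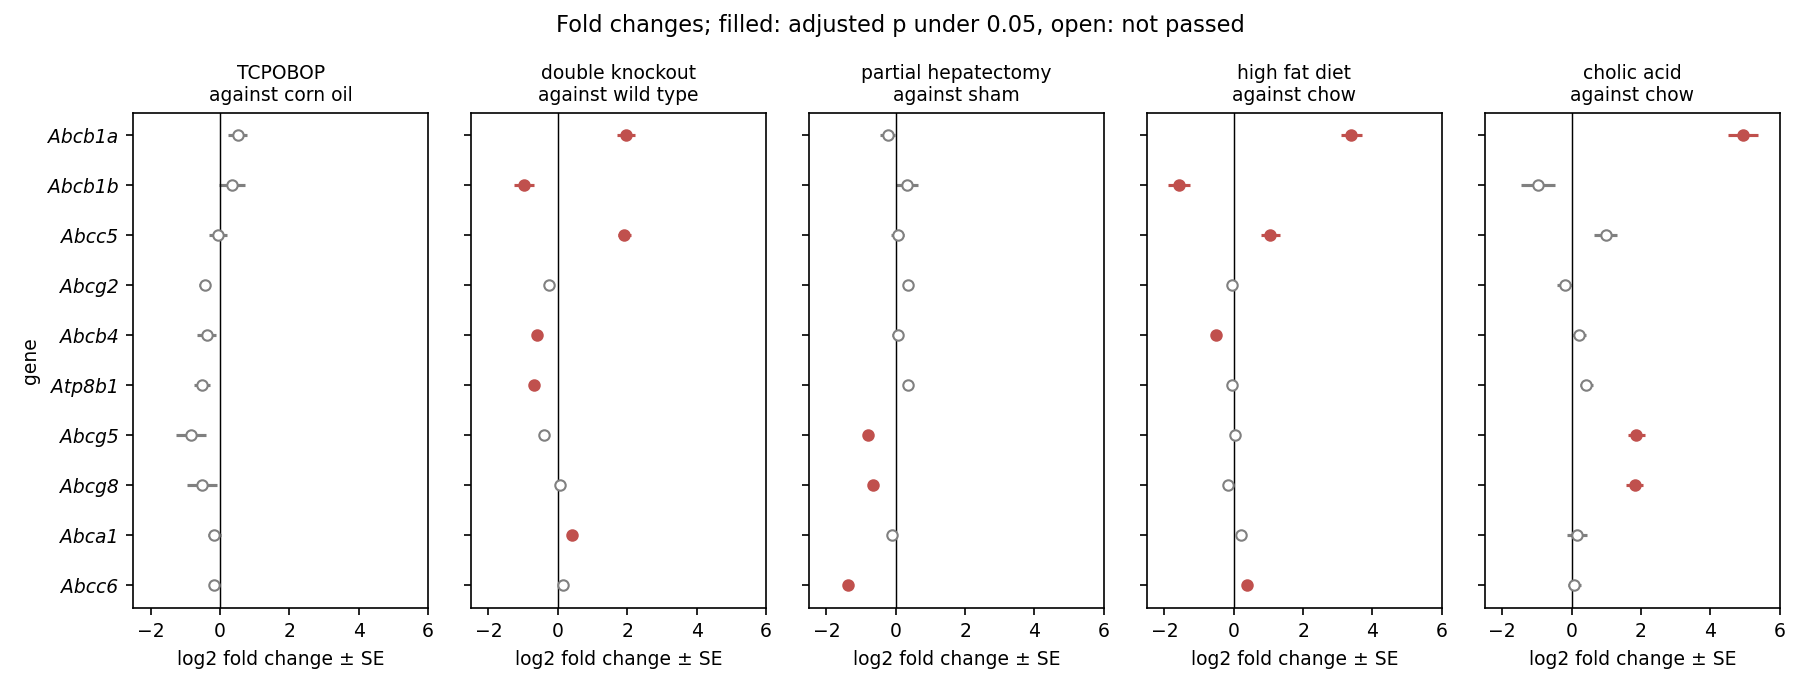
Log2 fold change of each pump gene in the 5 comparisons, with bars of 1 SE; filled points were called at an adjusted p under 0.05. Abcb1a is the farthest to the right with cholic acid (4.94), high fat diet (3.40) and in the knockout (1.96), and Abcc6 the farthest to the left after hepatectomy (-1.37).

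The differences between effects were tested directly, although strain, age, feeding, tissue and batch differ between the experiments and cannot be told apart from them. The knockout effect was below the cholic acid effect for Abcb1a (log2 difference -2.97 ± 0.54, adjusted p = 0.00355), Abcg5 (-2.25 ± 0.29, 0.000469), Abcg8 (-1.77 ± 0.29, 0.00174), Atp8b1 (-1.09 ± 0.21, 0.00518) and Abcb4 (-0.81 ± 0.22, 0.0270). These are 5 of 10 genes, beside 13.9% of 13935 genes in either direction and 6.74% lower. The Abcb4 call was lost in 6 of 12 fits that left out 1 library. The hepatectomy effect was below the cholic acid effect for Abcb1a (-5.17 ± 0.50, 0.000108), Abcg5 (-2.65 ± 0.26, 0.000117), Abcg8 (-2.47 ± 0.29, 0.000358) and Abcc6 (-1.44 ± 0.20, 0.00114), 4 of 10 beside 13% of 13985 genes and 5.01% lower. The knockout effect was below the high fat diet effect for Abcb1a (-1.42 ± 0.43, 0.0477) and Atp8b1 (-0.62 ± 0.17, 0.0345), 2 of 10 beside 16.1% of 14280 genes and 8.11% lower. Both of these calls were lost with all 26 libraries in the fit, and leaving out 1 library ended the first in 7 and the second in 5 of 10 fits. The knockout and hepatectomy contrasts with cholic acid share the cholic acid and chow libraries.

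Counts for wider lists are given beside the same shares of all genes. These lists, like the 10 pump genes, were chosen with earlier results of these data known. A count above such a share is therefore a description and not a test. Other ABC transporters formed a list of 29 genes. In the Fxr-/- Shp-/- livers 10 of 27 tested were higher and 7 lower, beside 21% and 19.4% of all genes. Abcc4 (Mrp4), a bile acid and nucleotide exporter of the blood side, rose to 54.7 ± 19.1 CPM from 2.00 CPM (log2 4.79, adjusted p = 2.18e-05). Abcd2, a peroxisomal fatty acid transporter, rose as well (log2 2.21, adjusted p = 2.49e-05), while the bile salt export pump Abcb11 fell (log2 -2.23, adjusted p = 0.000103). After hepatectomy 7 of 27 were lower, beside 14.3% of all genes, and none higher, among them Abcd3 (log2 -0.72, adjusted p = 0.000455) and Abca8a, which fell by 1.00 on the log2 scale (adjusted p = 0.00126). On the high fat diet 5 of 27 were higher and 4 lower, near the 12.9% and 11.1% of all genes, with rises of Abcd2 (3.56, 0.000517) and the sterol transporter Abcg1 (2.02, 0.00992). With cholic acid 5 of 26 were higher, beside 2.27% of all genes, and none lower, led by Abcc4 (1.87, 0.0243), the conjugate exporter Abcc2 (0.84, 0.0262) and Abca8a (0.95, 0.0397). None of 26 was called with TCPOBOP, where 0% of all genes were.

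Among the 16 other P4-ATPases and their subunits, 4 of 12 tested were higher and 4 lower in the Fxr-/- Shp-/- livers, where 40.4% of all genes were called. Atp9b (log2 0.64, adjusted p = 0.000783) and Atp8b2 (1.42, 0.00191) rose. After hepatectomy, with 30.7% of all genes called, 4 of 13 were higher, led by Atp8b5 (1.65, 0.000144), Atp11a (0.94, 0.0122) and Atp10a (1.45, 0.0171), and 1 was lower. With the high fat diet, where 24% of all genes were called, 1 of 12 was higher, Atp8a1 (1.40, 0.0177), and 3 were lower, among them Tmem30a (-0.61, 0.0171), the subunit that most flippases need. With cholic acid (4.77% of all genes) none of 11 was called, and with TCPOBOP none of 12.

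Genes of liver X receptor signalling and sterol handling numbered 22, of which 21 were tested. After hepatectomy, where Abcg5 and Abcg8 fell, 12 were lower, beside 14.3% of all genes, and none higher. Hepatic lipase Lipc (log2 -1.06, adjusted p = 0.000602), Apoe (-0.70, 0.00112) and the desaturase Scd1 (-1.88, 0.00177) led that group. The median log2 change of the list was -0.45 beside 0.01 over all genes. In the Fxr-/- Shp-/- livers 8 were higher and 5 lower, beside 21% and 19.4% of all genes, with rises of Scd1 (3.74, 4.8e-06) and Npc2 (0.87, 0.000103). The high fat diet gave 6 higher and 2 lower, beside 12.9% and 11.1%, led by Mylip (1.20, 0.00725), Pltp (1.00, 0.00796) and Abcg1. With cholic acid, where 4.77% of all genes were called, 2 were higher, the cholesterol receptor Scarb1 (1.01, 0.0152) and the cholesterol-esterifying enzyme Soat2 (1.18, 0.0302), and Lipc was lower (-1.05, 0.0150). With TCPOBOP none was called.

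The 12 nuclear receptors and other factors known to act on pump genes were all tested. In the knockout 2 of the 12 were higher and 6 lower (40.4% of all genes in either direction). The 6 include Nr0b2 and Nr1h4, which the genotype targets, so their fall is no finding about the list. Of the rest, the CAR gene Nr1i3 (log2 -1.04, adjusted p = 0.000370) came first. With cholic acid Nr0b2, an Fxr target, rose (1.96, 0.00982), Nr1h4 fell (-1.01, 0.0219) and the xenobiotic receptor Nr1i2 (PXR) rose (0.68, 0.0443), 3 of 12 beside 4.77% of all genes. After hepatectomy 4 were higher and 3 lower (30.7% of all genes), with Nr1i2 (-0.73, 0.00363), Nr0b2 (1.99, 0.00562) and Nr1i3 (-0.71, 0.00870) first. The high fat diet gave 1 higher and 3 lower (24% of all genes), with Srebf2 (-0.69, 0.0110) and Hnf4a (-0.68, 0.0233) first. None was called with TCPOBOP.

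Patterns were compared over the 26 libraries as log2(CPM + 0.5) minus the mean of the library's own control group, among 10518 genes. The libraries share experiments and controls, so the correlations are descriptions. Each like gene was picked for its pattern over these same libraries. Its changes given below restate that choice and are no separate support. Abcg5 and Abcg8 had a Pearson r of 0.96, the highest of the 45 pairs of pump genes, and Abcb1a and Abcb1b had the lowest (-0.76). Abcb1a was most like Nqo1 (0.93), a quinone reductase, and Man2b2 (0.90). Nqo1 rose with cholic acid (log2 2.52 ± 0.25, adjusted p = 0.00256), with the high fat diet (1.34 ± 0.14, 0.00524) and in the knockout (0.73 ± 0.16, 0.00776). After hepatectomy (0.10 ± 0.20, 0.742) and with TCPOBOP (-0.30 ± 0.45, 0.974) it was not called. Abcg5 was most like Soat2 (0.94) and Dsg2 (0.91), and Abcg8 most like Chd2 (0.90) and Egln2 (0.88). Soat2 rose with cholic acid and, like Abcg5, fell after hepatectomy (-0.71 ± 0.11, 0.00226). Abcc6 was most like Cyp46a1 (0.93) and Ttc23 (0.90), and Selenon (0.93) was among the genes most like Abcc5. The nearest genes were Pcsk7 (0.82) and Sephs1 (0.81) for Abcb4, and Itsn1 (0.89) and Map3k7 (0.88) for Atp8b1. For Abcb1b they were C8b (0.87) and Ipp (0.85), for Abca1 Mycbp2 (0.82) and Slc3a2 (0.80), and for Abcg2 Fancl (0.80) and Cpox (0.79).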

How the data were processed

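RNA was sequenced from whole liver or isolated hepatocytes with a TruSeq Stranded mRNA kit, per the labels' protocols. The authors deposited 1 table of raw read counts per gene for all 26 libraries, with 47643 genes and 5 summary lines (23.0 to 48.6% of reads), which were left out. The submitters' processing notes name GRCm38 (mm10), bcl2fastq 2.17.1.14, Trimmomatic, STAR 2.4.2a, Picard 1.119 and HTSeq. The annotation release and the strand setting are not given in the sources used here. Groups came from the sample titles. Symbols were matched by gene identifier without its version (47224 matched). Exon lengths and coordinates came from GENCODE M21, and promoter windows from RefSeq (GRCm38.p6), which held 8 of the 10 genes.

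Each treated group was fitted with its own control only. Genes passed edgeR's filterByExpr (count of at least 10, total of at least 15), libraries were scaled by TMM, and the quasi-likelihood test of edgeR 4.0.16 (with limma 3.58.1 under R 4.3.3) was run. Calls were made at a Benjamini-Hochberg adjusted p under 0.05 over all genes tested. The SE was taken as the size of the log2 change over the root of the F statistic. As alternatives, libraries were scaled by the size factors of DESeq2 1.42.0, its Wald test was run, the filter was dropped or set to a mean of 10 counts, all 26 libraries were fitted together, the replicate number was added as a block, and each library was left out. Same-numbered cholic acid and chow libraries deviated together (correlations of 0.133, 0.155 and 0.103). Same-numbered TCPOBOP and corn oil libraries were at 0.104 in each pair, and those of the high fat diet comparison at 0.0940. In the knockout and hepatectomy comparisons some such pairs were negative. The fits were tested on simulated data.

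All 10 genes are given in every comparison; of each list at most the 3 called genes with the smallest adjusted p are named; the 2 genes of most alike pattern have a mean of at least 2 CPM. Some genes that this rule selects are not reported here. The members and lists were chosen with earlier results of these data known.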

Additional observations from a re-analysis of the deposited data

Results flagged for a closer look

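Several pump genes responded differently in separate experiments, by a test of the difference between the effects (edgeR, interaction contrast). Against the cholic acid effect, the knockout effect was lower by a log2 difference of -2.97 for Abcb1a, -2.25 for Abcg5, -1.77 for Abcg8, -1.09 for Atp8b1 and -0.81 for Abcb4. Abcb1a rose in both experiments, while Abcg5 and Abcg8 were called only with cholic acid and Abcb4 and Atp8b1 only in the knockout. Against the same cholic acid effect, the hepatectomy effect was lower by -5.17 for Abcb1a, -2.65 for Abcg5, -2.47 for Abcg8 and -1.44 for Abcc6. The sterol pump genes were called in opposite directions there, higher with cholic acid and lower after hepatectomy. Against the high fat diet effect, the knockout effect was lower by -1.42 for Abcb1a and -0.62 for Atp8b1. Strain, age, feeding, tissue and batch cannot be told apart from these differences.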

How the results depend on the processing

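Of 1049 values of the 10 genes under alternatives, 950 kept their direction and their side of the threshold, 50 lost the call, 14 gained it and 35 changed sign, none of them a called value. Among the counts of called genes, leaving out 1 library gave 0 to 4 with TCPOBOP (4 without the library labelled corn oil 1), 4 to 7 in the knockout, 3 to 5 after hepatectomy, 1 to 3 with the high fat diet and 0 to 3 for the knockout minus the high fat diet effect. With all 26 libraries in the fit the high fat diet count was 3 and the knockout minus high fat diet count 0. With the replicate block the latter was 1, and the knockout count was 4 in place of 6. For cholic acid the block changed no call among the 10 genes. The cause was not tested.

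Over all genes, cholic acid calls numbered 600. They were 480 with the replicate block, 1379 with DESeq2's Wald test, 955 with no filter and 3132 with all 26 libraries in the fit. High fat diet calls numbered 3333 against 1735 in that last fit. Abcb1b in the knockout minus cholic acid contrast was -0.023 with all 26 libraries. The sign changes on leaving out 1 library lay in these log2 ranges. TCPOBOP: Abcg8 -0.97 to 0.15, Abcc5 -0.25 to 0.15, Abca1 -0.37 to 0.083. Knockout: Abcg8 -0.084 to 0.14. Hepatectomy: Abcb4 -0.089 to 0.21, Abcc5 -0.028 to 0.18. High fat diet: Abcg2 -0.15 to 0.044, Abcg5 -0.025 to 0.071, Atp8b1 -0.18 to 0.10. Cholic acid: Abcc6 -0.077 to 0.16, Abca1 -0.086 to 0.43. Knockout minus cholic acid: Abcb1b -0.36 to 0.27, Abcg2 -0.24 to 0.17, Abcc6 -0.0049 to 0.24, Abca1 -0.020 to 0.49. Hepatectomy minus cholic acid: Abcb4 -0.29 to 0.012, Atp8b1 -0.20 to 0.061. Depth limits Abcb1b most, with 9 to 90 reads per library.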
